A study of Mus musculus with 9 samples.

Results

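The genes of prostanoid synthesis and prostanoid receptors were examined in the neurosensory retinas of 9 mice, through 10 genes picked by gene name from the 54532 genes of the count table. They are both cyclooxygenases (Ptgs1 and Ptgs2), 3 terminal synthases (Ptgds, Ptges, and Ptgis), and 5 receptors (Ptgfr, Ptger1, Ptger2, Ptger3, and Ptger4), and each was found on 1 row. All mice were wild-type C57BL/6 at postnatal day 17 (P17). There were 3 controls raised in room air and labelled with DMSO, 3 mice with oxygen-induced retinopathy (OIR) that received the vehicle DMSO into the eye at P12, and 3 OIR mice that received the hypoxia-inducible factor (HIF) inhibitor 32-134D at P12. The inhibitor is labelled 70 ng in the treatment field and 70 ng/μL in the treatment protocol. The OIR model exposes pups to high oxygen, which obliterates central retinal vessels, and returns them to room air, where the retina becomes ischemic. Mice are named by group and by the numbers of their labels.

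Prostanoids are short-lived lipid signals made from arachidonic acid that a phospholipase A2 frees from membranes. A cyclooxygenase, either the constitutive enzyme of Ptgs1 (COX-1) or the inducible enzyme of Ptgs2 (COX-2), turns arachidonic acid into prostaglandin H2, and terminal synthases make prostaglandins D2, E2, and F2α, prostacyclin, or thromboxane from it. Each product acts near its source on G protein–coupled receptors, and in the eye they are known for effects on vascular tone, vessel growth, inflammation, and intraocular pressure.

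Sequencing gave 16028731 to 27213184 counts per mouse. Because whole retina was sequenced, fewer cells of a type and less RNA per cell cannot be told apart. As a check of the tissue, 4 markers of Müller glia, the main glia of the retina, summed to between 1557 and 3890 CPM (counts scaled to the size of each library with TMM factors) over the 9 mice, with none at 0. Treated OIR mouse 2 stood apart, since 6 lens markers summed to 97373 CPM there and to at most 702 CPM in any other mouse. Fold changes and calls were therefore also computed without that mouse, as were, by a choice made after seeing the data, the order of levels, the overlap of groups, and the likeness of genes.

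Per unit of length, Ptgds was by far the most abundant of the 10 genes. In TPM, which scales counts by gene length and by library, its level had a median of 321.1 over the 9 mice, from 200.2 to 542.9. This median lay above that of 97.7% of the genes tested. By mean TPM of each group, averaged over the groups, Ptgds made up 93.9% of the TPM of all 10 genes. The other 9 genes each had a median of 8.67 TPM or lower. They followed in the order Ptgis (8.67 TPM), Ptges (5.25 TPM), Ptgs1 (4.01 TPM), Ptgfr (2.02 TPM), Ptger3 (0.775 TPM), Ptgs2 (0.562 TPM), Ptger1 (0.440 TPM), Ptger4 (0.393 TPM), and Ptger2 (0.231 TPM). Among neighbours in this order, only Ptgds and Ptgis had ranges over the mice that did not overlap, although Ptgis was above Ptges within each of the 9 mice. All other neighbours in this order overlapped and were in this order in 4 to 8 of the 9 mice. Ptgs1 had a higher TPM than Ptgs2 in 9 of 9 mice, by a ratio with a median of 8.79 and a range from 3.54 to 51.9. Without treated OIR mouse 2 the order of the 10 genes was the same, Ptgds made up 93.8%, and the ratio had a median of 8.96.

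**Figure D1:**
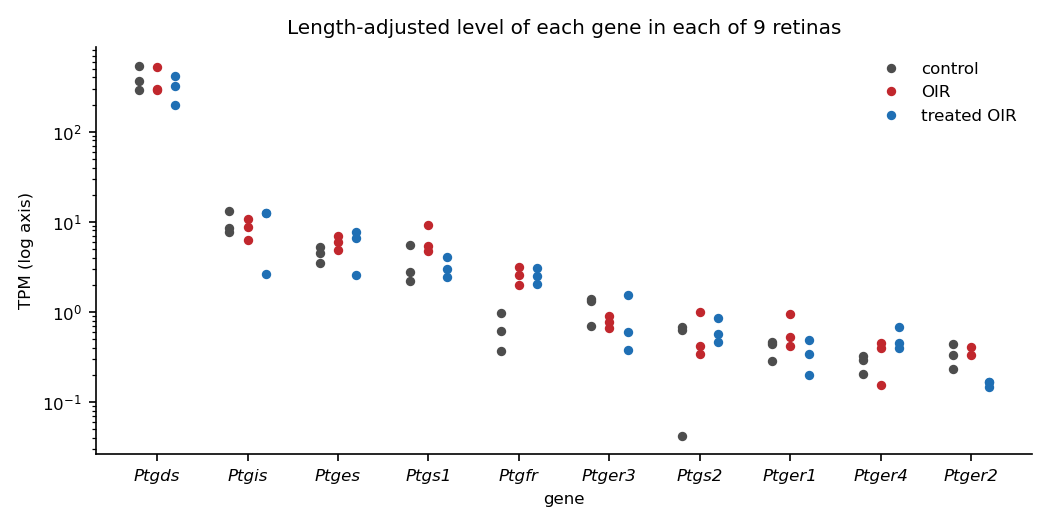
Level of each of the 10 genes in TPM (log axis) in the 9 retinas, with 1 point per mouse coloured by group and genes ordered by their median. Ptgds stands alone with a median of 321.1 TPM, and the others lie at medians of 8.67 TPM or lower. The OIR mouse with 0 counts of Ptger2 cannot be drawn on a log axis.

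The windows before the RefSeq starts of 4 genes are shown because the inhibitor acts on the HIFs, which bind the hypoxia response element core (ACGTG or GCGTG, either strand). A RefSeq promoter was found for 8 of the 10 genes, all except Ptgis and Ptger1. The 250 bases upstream of the start held the core in 3 of the 8 genes, Ptgs2, Ptges, and Ptger3, while 41.5% of all 27025 genes with such a window held it. Capitals mark the core as it reads on the printed strand, and all windows are on GRCm38.p6, 5′ to 3′ along the gene. Ptgfr is shown because its level differed most between groups, and its window held no core.
Ptgfr, chr3:151837529-151837778, minus strand: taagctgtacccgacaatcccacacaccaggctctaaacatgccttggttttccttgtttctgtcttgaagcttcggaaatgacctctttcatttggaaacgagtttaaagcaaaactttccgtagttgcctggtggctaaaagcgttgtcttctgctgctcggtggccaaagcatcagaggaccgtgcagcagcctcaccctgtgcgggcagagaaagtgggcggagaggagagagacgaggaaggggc
Ptgs2, chr1:150099781-150100030, plus strand: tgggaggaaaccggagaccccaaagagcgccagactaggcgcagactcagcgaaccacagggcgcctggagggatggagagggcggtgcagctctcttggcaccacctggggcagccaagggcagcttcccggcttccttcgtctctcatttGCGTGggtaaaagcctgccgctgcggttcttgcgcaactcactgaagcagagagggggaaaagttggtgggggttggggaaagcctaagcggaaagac
Ptges, chr2:30903298-30903547, minus strand: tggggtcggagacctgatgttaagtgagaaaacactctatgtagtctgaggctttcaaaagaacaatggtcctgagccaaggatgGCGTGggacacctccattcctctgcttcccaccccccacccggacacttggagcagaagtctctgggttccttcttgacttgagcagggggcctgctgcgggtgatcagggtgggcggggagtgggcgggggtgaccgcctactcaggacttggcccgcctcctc
Ptger3, chr3:157566626-157566875, plus strand: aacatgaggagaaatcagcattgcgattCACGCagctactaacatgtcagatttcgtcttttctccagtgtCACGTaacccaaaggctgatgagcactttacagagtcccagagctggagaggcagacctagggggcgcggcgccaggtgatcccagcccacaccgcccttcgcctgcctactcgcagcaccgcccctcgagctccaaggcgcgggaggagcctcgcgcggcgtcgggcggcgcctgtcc
The core stood 98 to 94 bases before the start of Ptgs2 and 165 to 161 bases before that of Ptges. Ptger3 held it on the minus strand at 222 to 218 and at 179 to 175 bases before its start. The cAMP response element TGACGTCA, searched on both strands, was in 0 of the 8 windows, and 1.77% of all genes held it. The RefSeq starts of Ptges and Ptgfr lie inside the gene positions given below, far inside for Ptges and close to the end for Ptgfr. These matches describe letters only, and no match says nothing about binding elsewhere.

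The first comparison asks how the genes differ in ischemic retina. An injection at P12 is given for both OIR groups, and no injection day is given for the controls. The controls carry the label DMSO, the vehicle, which does not say whether they were injected. From these labels, OIR and the injection therefore cannot be told apart in comparisons with control. Among the 10 genes, the receptor Ptgfr differed most between OIR and control mice, at 3.59-fold higher, and for each of the other genes the OIR and control values overlapped. In edgeR's quasi-likelihood test on all 9 mice, 0 of the 9 genes that passed the filter on low counts reached an adjusted p below 0.05 (Benjamini-Hochberg over 17540 genes), a threshold that 0.941% of all genes tested passed. Without adjustment 1 of the 9, Ptgfr, had a p below 0.05, against 23.8% of all genes, and only Ptgfr had groups that did not overlap. Among all genes 33% had such groups, 15.9% with OIR higher. DESeq2 and limma-voom each called 1 of the members, again Ptgfr, while they called 11.6% and 13.1% of all genes they tested, so 1 of 9 was near the background. The median log2 fold change was 0.26 over the 9 genes and 0.03 over all genes, and it was above 0 in 6 of the 9 and in 53.5% of all genes.

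Ptgfr (ENSMUSG00000028036, chromosome 3, 151796502 to 151837630, minus strand, GRCm38) encodes the receptor for prostaglandin F2α, the target of prostaglandin analogs used to lower eye pressure in glaucoma. It was at 1.92, 1.19, and 0.838 CPM in control mice 1, 6, and 7, from 55, 24, and 13 counts. In OIR mice 3, 5, and 6 it was at 5.99, 3.68, and 4.81 CPM, and in treated OIR mice 2, 5, and 10 it was at 7.42, 6.01, and 3.70 CPM. All 6 mice with OIR, treated or not, lay above all 3 controls, and the treated and untreated OIR mice overlapped. Among all genes, OIR mice lay above all controls for 15.9% and treated OIR mice for 12.8%.

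For Ptgfr the log2 fold change of OIR against control was 1.85 (standard error, SE, 0.39, 95% interval 0.97 to 2.72, edgeR adjusted p = 0.0599, unadjusted p ranked 290 of 17540). It passed with DESeq2 (1.83, SE 0.41, DESeq2 adjusted p = 0.000588), with limma-voom (1.90, SE 0.39, limma adjusted p = 0.0177), with edgeR on these 2 groups alone (adjusted p = 0.0270), and with no filter on low counts (edgeR adjusted p = 0.0357). The last 2 settings called 10.3% and 1.75% of all genes. Without treated OIR mouse 2, which carried the lens counts, it also passed, at 1.82 (SE 0.38, edgeR adjusted p = 0.0159), as did 12.5% of all genes. Leaving out each of the other mice kept the log2 fold change between 1.62 and 2.23, with edgeR adjusted p up to 0.194. The direction was thus the same in each setting, and the call depended on the setting. Ptgfr overlaps Gm43618 on the opposite strand, so its counts are uncertain where counting ignored strand.

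**Figure D2:**
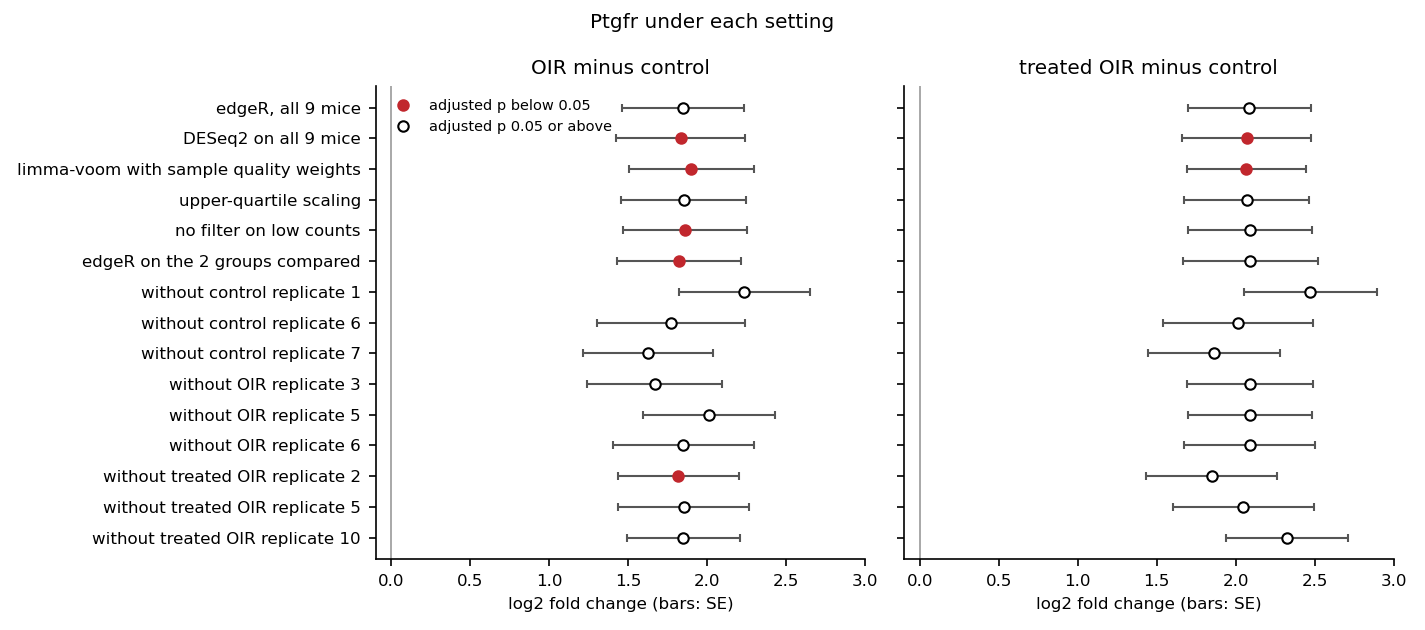
Log2 fold change of Ptgfr (x axis) in OIR and in treated OIR mice against control, under each tool, filter, and left-out mouse (y axis), with standard errors as bars. Filled points had an adjusted p below 0.05, and the estimates lie between 1.62 and 2.23 for OIR and between 1.85 and 2.47 for treated OIR mice.

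Cell markers were read in the same mice beside this result. Vascular markers overlapped between control and OIR mice, since 5 endothelial markers summed to 98.8 to 115.0 CPM in control and 46.4 to 168.3 CPM in OIR mice, and 5 pericyte and smooth muscle markers to 179.0 to 273.4 and 96.1 to 268.9 CPM. The sums of 3 astrocyte markers did not overlap between control and OIR mice, at 81.4 to 244.1 and 290.4 to 742.3 CPM. In treated OIR mice they were 135.8 to 451.3 CPM. Taken singly, Gfap, Pax2, and Pdgfra had log2 fold changes of 1.53, 0.90, and 0.73 for OIR against control. Their edgeR adjusted p values were 0.181, 0.226, and 0.139, so no astrocyte marker was called. No marker of these lists was at 0 in any group. Their part in the level of Ptgfr was not tested.

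By likeness over the 9 mice, the genes nearest to Ptgfr were AW011738, Kdelr3, and Adgrg6. Likeness was the mean absolute difference of centred log2 CPM, searched over 13973 genes, and was 0.26, 0.32, and 0.33, while Ptgfr itself deviated from its own mean by 0.87 on average. Kdelr3 encodes a receptor that returns proteins to the endoplasmic reticulum, and Adgrg6 an adhesion G protein–coupled receptor. The log2 fold changes of AW011738, Kdelr3, and Adgrg6 for OIR against control were 1.55, 1.07, and 1.85. Values near that of Ptgfr follow from picking genes by nearness to it in these same mice. Leaving out treated OIR mouse 2, the nearest genes were Cxcr4, F8, and AW011738, so only AW011738 was shared.

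Both cyclooxygenases were expressed at low levels, with Ptgs1 above 26.2% and Ptgs2 above 3.79% of the genes tested by median TPM. Ptgs1 (ENSMUSG00000047250, chromosome 2, 36230426 to 36252272, plus strand) was at 6.22, 3.12, and 2.84 CPM in control mice 1, 6, and 7. It was at 5.83, 5.03, and 9.76 CPM in OIR mice 3, 5, and 6, and at 5.14, 2.70, and 4.21 CPM in treated OIR mice 2, 5, and 10. Of the OIR mice only mouse 6 lay above all controls, and the treated mice lay within the range of the control mice or just below it. The log2 fold change of Ptgs1 was 0.75 for OIR against control (SE 0.40, 95% interval -0.15 to 1.65, edgeR adjusted p = 0.286) and -0.78 for treated OIR against OIR (SE 0.40, 95% interval -1.68 to 0.13, edgeR adjusted p = 0.9998). Treated OIR against control gave -0.02, with a 95% interval from -0.93 to 0.88. Ptgs1 overlaps Gm43621 on the opposite strand.

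Ptgs1 is known as a gene of microglia in nervous tissue, and 6 microglia and macrophage markers were summed beside it. The sums were 208.0, 126.0, and 59.4 CPM in control mice 1, 6, and 7 and 125.2, 162.2, and 226.2 CPM in OIR mice 3, 5, and 6. They were 75.4, 71.6, and 72.4 CPM in treated OIR mice 2, 5, and 10. In control and in OIR mice the mouse with the highest Ptgs1 was also the mouse with the highest marker sum, and the 3 treated mice had sums below every OIR mouse. Ptgs1 followed the order of the sum in control and treated OIR mice but not in OIR mice. There mouse 3 had more Ptgs1 than mouse 5, at 5.83 and 5.03 CPM, and a lower sum. Taken singly, the markers did not all move alike. For OIR against control Tmem119 had a log2 fold change of -1.01, while the other 5 ran from 0.30 (P2ry12) to 0.70 (Cx3cr1). For treated OIR against OIR 0 were above 0, with values from -0.23 (P2ry12) to -1.49 (C1qa). None of these 6 markers reached an adjusted p below 0.05 in edgeR in any comparison, and their part in the level of Ptgs1 was not tested.

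Other enzymes that macrophages and microglia are known to express were read in the same mice. Tbxas1, the thromboxane synthase, was at 5.52, 2.23, and 0.838 CPM in control, 3.74, 4.94, and 9.85 CPM in OIR, and 3.24, 0.981, and 0.771 CPM in treated OIR mice. Hpgds, the hematopoietic prostaglandin D synthase, was at 7.37, 4.31, and 1.35 CPM in control, 3.42, 5.08, and 6.21 CPM in OIR, and 3.05, 2.15, and 2.47 CPM in treated OIR mice. In control and in OIR mice both genes were ordered among the mice as the marker sum was. For both genes every treated OIR mouse lay below every OIR mouse, as was so for 5.39% of all genes tested. Of the 19 other pathway genes tested, 3 lay so, with Pla2g5 among them. Neither Tbxas1 nor Hpgds had an edgeR adjusted p below 0.05. For treated OIR against OIR the log2 fold changes were -1.90 (SE 0.75, edgeR adjusted p = 0.9998) and -0.94 (SE 0.52, edgeR adjusted p = 0.9998). Without treated OIR mouse 2 neither was called. Tbxas1 and Hpgds were named after their values were seen.

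**Figure D3:**
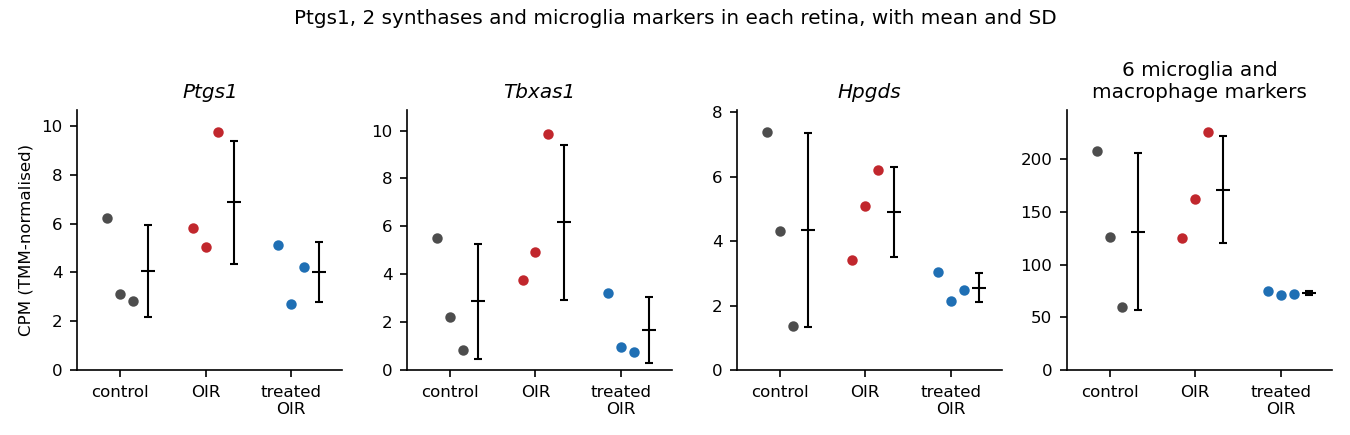
CPM of Ptgs1, Tbxas1, and Hpgds and the summed CPM of 6 microglia and macrophage markers in each retina (points), with the mean and SD of 3 mice (bars) in each group. The treated OIR mice lie between 71.6 and 75.4 CPM for the marker sum, below the 125.2 to 226.2 CPM of OIR mice.

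Ptgs2 (ENSMUSG00000032487, chromosome 1, 150100031 to 150108227, plus strand) had only 1 to 28 counts in a mouse. It was at 0.838, 0.892, and 0.0645 CPM in control, 0.535, 0.420, and 1.26 CPM in OIR, and 1.71, 0.736, and 0.565 CPM in treated OIR mice. The groups overlapped in each comparison. Ptgs2 had a log2 fold change of 0.26 for OIR against control (SE 0.79, 95% interval -1.51 to 2.03, edgeR adjusted p = 0.875) and 0.43 for treated OIR against OIR (SE 0.78, 95% interval -1.33 to 2.18, edgeR adjusted p = 0.9998). The first turned to -0.21 without control mouse 7 and to -0.37 without OIR mouse 6, and the second to -0.17 without treated OIR mouse 2, so no direction could be given for Ptgs2 at this depth. The genes most like it over the 9 mice were Ifitm2, Tnfrsf10b, and Maff, with mean absolute differences of 0.26, 0.30, and 0.31 in centred log2 CPM against 0.68 for its own mean deviation. Of these only Ifitm2 was among the nearest 3 without treated OIR mouse 2.

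For the terminal synthases Ptgds, Ptges, and Ptgis, no difference between groups was called with edgeR, DESeq2, or limma-voom. Ptgds (ENSMUSG00000015090, chromosome 2, 25466709 to 25470046, minus strand) encodes the lipocalin-type prostaglandin D synthase, a secreted enzyme abundant in brain and eye. It was at 176.8, 258.6, and 159.1 CPM in control, 138.6, 234.8, and 131.0 CPM in OIR, and 145.3, 151.5, and 184.1 CPM in treated OIR mice. One mouse in each of the control and OIR groups lay well above the other two, and all groups overlapped. The log2 fold changes were -0.24 for OIR against control (95% interval -0.81 to 0.34), -0.31 for treated OIR against control (95% interval -0.88 to 0.27), and -0.07 for treated OIR against OIR (95% interval -0.64 to 0.50), with edgeR adjusted p of 0.609, 0.535, and 0.9998. Ptgds had 2290 to 5220 counts in a mouse. The first log2 fold change came to 0.00 without control mouse 6 and the last to 0.25 without OIR mouse 5.

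Ptgds is also known from meninges and pigment epithelium, whose markers were summed beside it. The 6 leptomeningeal and fibroblast markers ranged widely among the controls, at 868.1, 176.6, and 19.5 CPM in control mice 1, 6, and 7, and Ptgds did not follow their order. They were at 67.3 to 206.2 CPM in OIR and 51.6 to 133.8 CPM in treated OIR mice. The 6 pigment epithelium and melanocyte markers summed to 238.9 CPM in control mouse 6 and 310.5 CPM in OIR mouse 5, the mice with the highest Ptgds of their groups and also the highest such sums. In treated OIR mice the highest sum, 381.6 CPM, was again in the mouse with the highest Ptgds, mouse 10. The part of these cells in the level of Ptgds was not tested.

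Ptges (ENSMUSG00000050737, chromosome 2, 30889471 to 30929863, minus strand) encodes the inducible microsomal prostaglandin E synthase. It was at 6.01, 5.05, and 4.58 CPM in control, 6.63, 7.41, and 5.31 CPM in OIR, and 4.44, 7.42, and 8.12 CPM in treated OIR mice. The groups overlapped, and the log2 fold change of 0.30 for OIR against control had a 95% interval from -0.30 to 0.91 (edgeR adjusted p = 0.524). Treated OIR mouse 2 was the lowest of all 9 mice for Ptges. The other synthases that make prostaglandin E, Ptges2 and Ptges3, were named after their values were seen and had log2 fold changes of -0.13 and -0.05 in the same comparison. Ptges overlaps the pseudogene Gm13400 on its own strand.

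Ptgis (ENSMUSG00000017969, chromosome 2, 167191805 to 167240604, minus strand) encodes prostacyclin synthase, an enzyme of vessel walls. It was at 6.43, 9.71, and 6.58 CPM in control, 7.81, 6.06, and 4.45 CPM in OIR, and 2.98, 9.14, and 8.79 CPM in treated OIR mice. The groups overlapped, and treated OIR mouse 2 was the lowest of the 9 mice. In log2 terms the difference was -0.31 for OIR against control (95% interval -1.23 to 0.61, edgeR adjusted p = 0.686) and 0.19 for treated OIR against OIR (95% interval -0.73 to 1.12, edgeR adjusted p = 0.9998). Without treated OIR mouse 2 the value for treated OIR against OIR was 0.58. The pericyte and smooth muscle markers were at 146.9 CPM in treated OIR mouse 2, and at 334.5 and 405.7 CPM in mice 5 and 10. Mouse 2, which carried the lens counts, also had the lowest endothelial and Müller glia sums of its group, at 53.7 and 1557 CPM. In OIR mice the pericyte and smooth muscle sum followed the order of Ptgis. In control mice it was highest, at 273.4 CPM, in mouse 1, which had the lowest Ptgis. The part of these cells was not tested. Ptgis overlaps 1110018N20Rik and Gm14291 on the opposite strand.

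**Figure D4:**
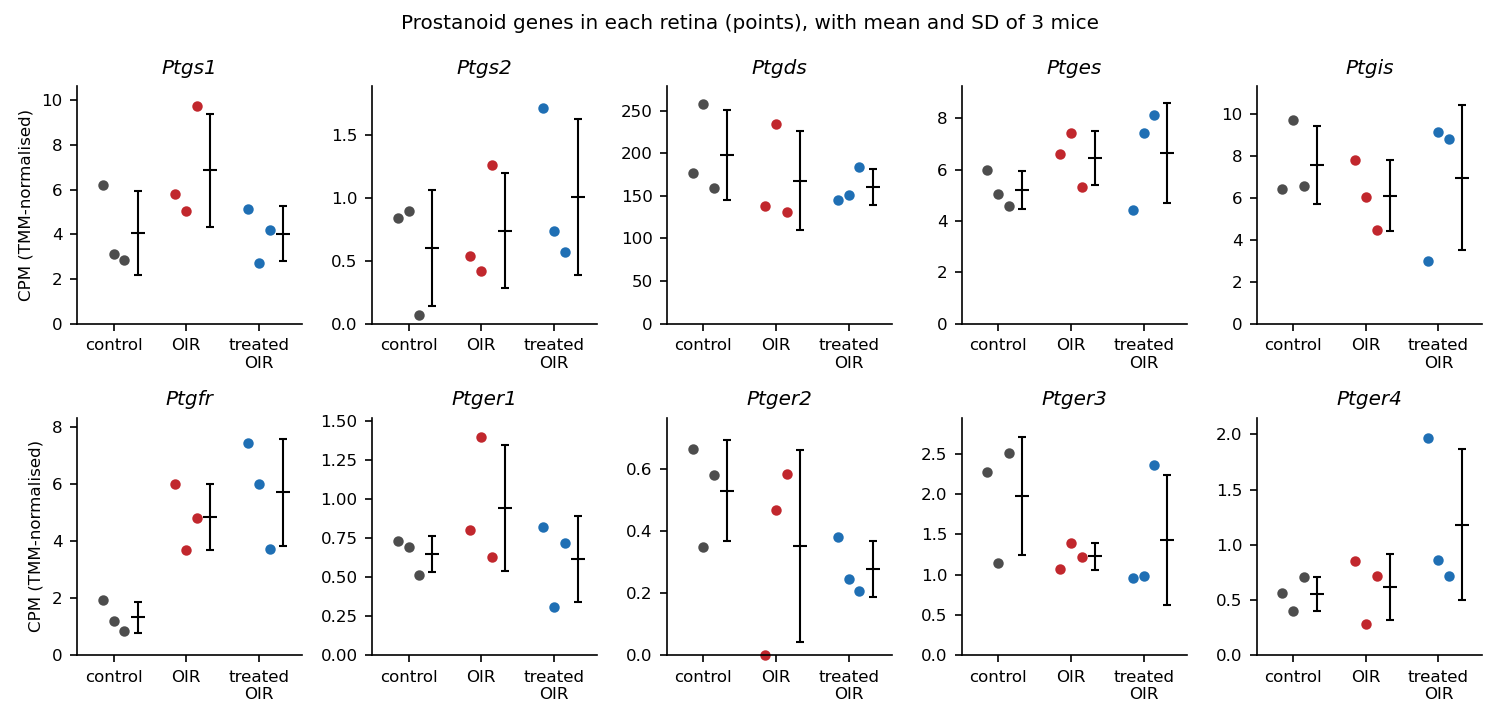
CPM of the 10 genes in each of the 9 retinas (points), with the mean and SD of 3 mice (bars) in each group and each axis starting at 0. For Ptgfr the OIR and treated OIR mice lie between 3.68 and 7.42 CPM, all above the control mice at 0.838 to 1.92 CPM, and for the other genes OIR and control mice overlap.

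The 4 receptors for prostaglandin E2 were expressed at low levels. Ptger1 couples to calcium, Ptger2 and Ptger4 raise cAMP, and Ptger3 lowers it. Ptger3 (ENSMUSG00000040016, chromosome 3, 157566892 to 157645888, plus strand) was the highest of them by TPM, and was at 2.27, 1.14, and 2.51 CPM in control, 1.07, 1.40, and 1.21 CPM in OIR, and 0.952, 0.981, and 2.36 CPM in treated OIR mice. The OIR values lay close together, with control mouse 6 among them and the other controls above, and treated OIR mouse 10 was at the level of the higher controls. The log2 fold change for OIR against control was -0.68 (SE 0.46, 95% interval -1.71 to 0.35, edgeR adjusted p = 0.398).

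Ptger4 (ENSMUSG00000039942, chromosome 15, 5206661 to 5244187, minus strand) was at 0.559, 0.396, and 0.709 CPM in control, 0.855, 0.280, and 0.720 CPM in OIR, and 1.97, 0.859, and 0.719 CPM in treated OIR mice. The treated OIR mice lay just above all controls, and the nearest pair was mouse 10 with 14 counts and control mouse 7 with 11 counts. For Ptger4 the log2 fold change was 1.08 for treated OIR against control (SE 0.57, 95% interval -0.20 to 2.36, edgeR adjusted p = 0.334) and 0.93 for treated OIR against OIR (SE 0.56, edgeR adjusted p = 0.9998). Without treated OIR mouse 2, which had the highest value, these were 0.52 and 0.38. Ptger4 overlaps Ttc33 and the pseudogene Gm15937 on the opposite strand.

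Ptger1 (ENSMUSG00000019464, chromosome 8, 83666678 to 83672753, plus strand) had 5 to 30 counts in a mouse. It was at 0.733, 0.694, and 0.516 CPM in control, 0.802, 1.40, and 0.630 CPM in OIR, and 0.825, 0.307, and 0.719 CPM in treated OIR mice, and the groups overlapped. Ptger2 (ENSMUSG00000037759, chromosome 14, 44988195 to 45003820, plus strand) was the 1 gene of the 10 that did not pass the filter on low counts, so it has no test. It had 19, 7, and 9 counts in control, 0, 10, and 13 in OIR, and 6, 4, and 4 in treated OIR mice. The treated OIR mice lay at 0.381, 0.245, and 0.206 CPM and overlapped with control mice at 0.664, 0.347, and 0.580 CPM. Ptger2 overlaps Gm17173 and Gm49364 on the opposite strand.

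The second comparison asks what remained different from control in treated OIR mice. Here 0 of 9 genes passed in edgeR at an adjusted p below 0.05, as did 0.0228% of all genes, and 1 of 9 had an unadjusted p below 0.05, against 18.6% of all genes. DESeq2 and limma-voom each called Ptgfr, against 4.22% and 5.28% of all genes. Its log2 difference was 2.09 (SE 0.39, 95% interval 1.20 to 2.97, edgeR adjusted p = 0.102), 2.07 with DESeq2 (DESeq2 adjusted p = 0.000176), and 2.07 with limma-voom (limma adjusted p = 0.0251). It did not pass with edgeR under any other setting, with adjusted p up to 0.246 under the other scalings, filters, and group choices and from 0.108 to 0.269 when each mouse was left out, treated OIR mouse 2 included. Ptgfr and Ptger4 were higher with no overlap between the groups, 2 of 9 against 12.8% of all genes (25% in either direction). With treated OIR mouse 2 left out, Ptges joined them, 3 of 9 against 18.2% of all genes. The log2 fold change was above 0 in 4 of 9 genes, against 51.4% of all genes. The other 7 genes had log2 fold changes from -0.45 to 0.69. This comparison shares its control mice with the first, so the 2 log2 fold changes of Ptgfr are not independent.

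The third comparison asks how the inhibitor-treated OIR retinas differed from those given vehicle. In edgeR 0 of 9 genes passed at an adjusted p below 0.05 and 0 of 9 at an unadjusted p below 0.05, against 0% and 4.69% of all genes, and DESeq2 and limma-voom called none, against 0.217% and 0.0057% of all genes. The groups overlapped for each of the 9 genes, while 9.13% of all genes did not overlap. When treated OIR mouse 2 was left out, Ptges and Ptgis were higher and Ptgs1 was lower with no overlap, 2 and 1 of 9 against 16.1% and 17.1% of all genes. The log2 fold changes ran from -0.78 for Ptgs1 to 0.93 for Ptger4, with a median of 0.19 against 0.01 over all genes. It was above 0 in 6 of 9 genes and in 51.3% of all genes. For Ptgfr it was 0.24 (SE 0.37, 95% interval -0.59 to 1.07), and without treated OIR mouse 2 it was 0.03. The intervals of all 9 genes included 0, and that of Ptgs2, the widest, ran from -1.33 to 2.18.

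**Figure D5:**
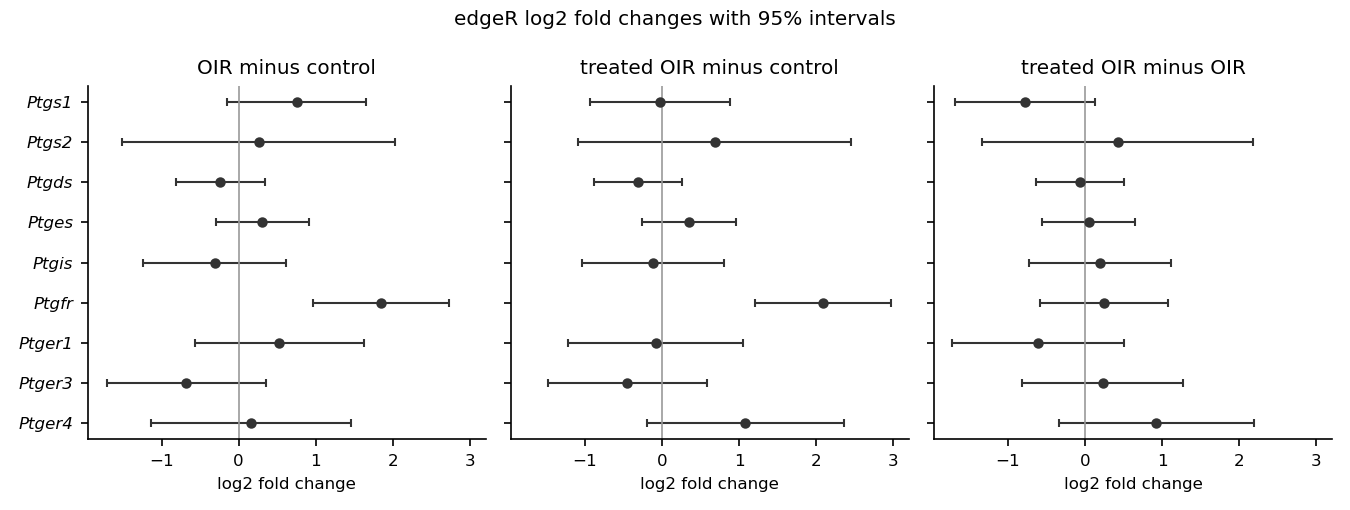
Log2 fold changes (x axis) of the 9 genes tested (y axis) in the 3 comparisons, from edgeR on all 9 mice, with 95% intervals as bars. Only the intervals of Ptgfr against control, 0.97 to 2.72 for OIR and 1.20 to 2.97 for treated OIR mice, lie clear of 0.

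The rest of the pathway was read through 23 further genes for arachidonic acid release, other synthases, other receptors, transport, and breakdown, of which 19 passed the filter. In OIR mice against control, 0 of 19 passed in edgeR at an adjusted p below 0.05, and 4 were lower and 0 higher at an unadjusted p below 0.05, against 12.7% and 11.1% of all genes. DESeq2, limma-voom, edgeR on the 2 groups, and edgeR without treated OIR mouse 2 each called 4 of the 19, namely Fam213b, Cbr1, Pla2g6, and Hpgd, all lower. The same settings called 7.34%, 7.91%, 7.44%, and 8.59% of all genes as lower, and 11.6%, 13.1%, 10.3%, and 12.5% in either direction. Groups did not overlap for 5 of the 19, all lower, against 17.2% of all genes lower and 33% in either direction. The median log2 fold change of the 19 was -0.03.

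Fam213b encodes a synthase of prostamide F2α and of prostaglandin F2α, the ligand of the receptor Ptgfr. It was at 48.3, 49.5, and 61.0 CPM in control, 35.1, 32.1, and 26.6 CPM in OIR, and 27.2, 33.2, and 33.7 CPM in treated OIR mice. All 6 mice with OIR lay below all controls, and treated and untreated OIR mice overlapped. Among all genes, OIR mice lay below all controls for 17.2% and treated OIR mice for 12.2%. Fam213b had a log2 fold change of -0.76 for OIR (SE 0.15, edgeR adjusted p = 0.0539) and -0.75 for treated OIR mice against control (SE 0.15, edgeR adjusted p = 0.102). Without treated OIR mouse 2 the first was -0.78 and passed (SE 0.13, edgeR adjusted p = 0.00783).

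Cbr1, a carbonyl reductase that can convert prostaglandin E2 to F2α, was at 63.1, 58.4, and 66.9 CPM in control, 46.9, 47.9, and 48.5 CPM in OIR, and 55.6, 47.7, and 51.7 CPM in treated OIR mice. Its log2 fold change for OIR against control was -0.39 (SE 0.09, edgeR adjusted p = 0.0644), with no overlap between these groups. Pla2g6, a calcium-independent phospholipase A2, was at 36.6 to 39.9 CPM in control and 26.1 to 31.0 CPM in OIR mice, which gave -0.43 on the log2 scale (SE 0.13, edgeR adjusted p = 0.103). Both genes were lower in all 3 OIR mice than in every control.

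Hpgd encodes the dehydrogenase that inactivates prostaglandins E2 and F2α, and it was named after its values were seen. It was at 14.7, 14.6, and 13.6 CPM in control, 4.38, 6.20, and 4.32 CPM in OIR, and 1.21, 5.70, and 10.8 CPM in treated OIR mice. The controls lay close together and above all mice with OIR, whereas the treated mice were spread from below to above the OIR mice. The log2 fold change for OIR against control was -1.52 (SE 0.57, edgeR adjusted p = 0.155), where the shared spread includes the treated mice. With edgeR on these 2 groups alone it was -1.55 (SE 0.20, edgeR adjusted p = 0.00898), and without treated OIR mouse 2 it was -1.55 (SE 0.25, edgeR adjusted p = 0.00726). Slco2a1, the prostaglandin transporter that brings prostaglandins to this enzyme, differed by 0.55 on the log2 scale (SE 0.43, edgeR adjusted p = 0.478), and was also named after its values were seen.

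In treated OIR mice against control, 0 of the 19 passed in edgeR, and 3 were lower and 1 higher at an unadjusted p below 0.05, against 8.6% and 10% of all genes. DESeq2 and limma-voom each called 1, Fam213b, which was lower. They called 2.19% and 2.66% of all genes as lower, and 4.22% and 5.28% in either direction. Groups did not overlap for 4 lower and 1 higher of the 19, against 12.2% and 12.8% of all genes. Between treated OIR and OIR mice 0 of the 19 passed, with 1 higher (Ptgfrn) and 1 lower (Tbxas1) at an unadjusted p below 0.05, against 2.39% and 2.3% of all genes, and DESeq2 and limma-voom called none. Groups did not overlap for 3 lower and 1 higher of the 19, against 5.39% and 3.74%. Ptgfrn, an immunoglobulin-family protein that lowers ligand binding to the Ptgfr receptor, was at 43.4, 39.6, and 35.6 CPM in control, 33.9, 33.9, and 39.9 CPM in OIR, and 63.9, 44.0, and 49.2 CPM in treated OIR mice. Every treated mouse lay above every other mouse. Among all genes, treated mice lay above all controls for 12.8% and above all OIR mice for 3.74%. The log2 fold change for treated OIR against OIR was 0.54 (SE 0.15, edgeR adjusted p = 0.984), and Ptgfrn was named after its values were seen.

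The lipoxygenase branch, the other main use of arachidonic acid, was read through 12 genes, of which 9 passed the filter. In edgeR 0 of 9 passed in any of the 3 comparisons, nor did any pass with DESeq2 or limma-voom. At an unadjusted p below 0.05, 2 of 9 were higher in OIR than in control mice, against 11.1% of all genes, 1 was higher in treated OIR than in control mice, against 10%, and 1, Ltc4s, was lower with the inhibitor than with vehicle, against 2.3%. The first 2 were Ltc4s, which makes leukotriene C4, and Cysltr1, a receptor for it. Ltc4s was at 0.349, 1.09, and 0.387 CPM in control, 0.855, 1.86, and 3.60 CPM in OIR, and 0.888, 0.368, and 0.206 CPM in treated OIR mice. Its log2 fold change was 1.79 for OIR against control (SE 0.71, edgeR adjusted p = 0.171) and -2.13 for treated OIR against OIR (SE 0.74, edgeR adjusted p = 0.990). OIR mouse 6 and treated OIR mouse 2 had both the highest Ltc4s and the highest microglia and macrophage marker sum of their groups. In control mice the highest marker sum, 208.0 CPM, was in mouse 1, which had the lowest Ltc4s. The part of these cells in the level of Ltc4s was not tested. Cysltr1 was at 0.149 to 0.594 CPM in control and 0.606 to 1.53 CPM in OIR mice, or 1.51 on the log2 scale (SE 0.64, edgeR adjusted p = 0.195). For Alox12b, the third gene by unadjusted p, it was -1.09 (SE 0.73, edgeR adjusted p = 0.398).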

How the data were processed

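Retinal RNA of 9 mice, 3 per group, was extracted with a miRNeasy kit and sequenced on Illumina libraries. The authors deposited raw counts (whole numbers, 1 column per mouse) with a length for every gene. CASAVA and HISAT are named in the submitters' processing notes. How reads were counted, with which annotation and whether by strand, is not given in the sources used here, so genes that overlap another gene have uncertain counts. Gene positions are on GRCm38, since 98.3% of identifiers matched GENCODE M21 in position. No pair of the 9 libraries agreed within sampling noise, and p-values rest on the spread between mice, whose litters are not labelled.

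edgeR 4.0.16 (R 4.3.3) was run on the 9 mice with TMM factors, filterByExpr (minimum count 10), and the quasi-likelihood test with a mean per group, over 17540 genes. A gene was called at a Benjamini-Hochberg adjusted p below 0.05. The 95% intervals and SEs come from this fit. CPM used effective library sizes, log2 CPM a prior count of 2, and TPM the deposited lengths. Alternatives were DESeq2 1.42.0, limma 3.58.1 (voom with sample quality weights), upper-quartile scaling, no filter, edgeR on 2 groups, other thresholds, and leaving out each mouse.

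The 10 genes and all lists were chosen with earlier results of these data known. Text names all 10, any list gene called in edgeR or otherwise the 3 of each list with the smallest unadjusted p in OIR against control, and the 3 genes most like each of the 2 members with the widest range of group means. Promoter sequences are from RefSeq (GRCm38.p6). Some marker and neighbouring genes are not reported here.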

Additional observations from a re-analysis of the deposited data

How the results depend on the processing

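Of the recomputed log2 fold changes of the 9 genes, 350 kept their direction and their side of an adjusted p of 0.05. Another 7, all of Ptgfr, kept their direction and passed it, and 21 reversed, none of them past it. Leaving out 1 mouse in turn gave ranges from -0.37 to 0.61 for Ptgs2, -0.56 to 0.00098 for Ptgds, and -0.13 to 0.51 for Ptger4 in OIR against control. In treated OIR against control they were -0.24 to 0.43 for Ptgs1, -0.36 to 0.25 for Ptgis, and -0.32 to 0.24 for Ptger1, and limma-voom put Ptgis at 0.0043. In treated OIR against OIR they were -0.17 to 1.06 for Ptgs2, -0.22 to 0.25 for Ptgds, -0.12 to 0.30 for Ptges, -0.048 to 0.58 for Ptgis, and -0.34 to 0.48 for Ptger3. Against 0 calls in edgeR, the unadjusted threshold gave 1 of the 10 genes, 4 other pathway genes, and 2 lipoxygenase branch genes in OIR against control, then 1, 4, and 1 in treated OIR against control, and 0, 2, and 1 in treated OIR against OIR. DESeq2 and limma-voom each gave 1 of the 10 genes and 4 other pathway genes in OIR against control, and 1 and 1 in treated OIR against control, where over all genes DESeq2 called 1805 and 656 and limma-voom 2305 and 926. In OIR against control, edgeR on the 2 groups gave 1 and 4, no filter 1 and 1, and upper-quartile scaling 0 and 1, and leaving out 1 mouse gave 0 to 1 and 0 to 4, with the highest counts without treated OIR mouse 2. The cause was not tested. No paired analysis was run, because no label pairs the mice of different groups. Ptgs2, Ptger1, Ptger2, and Ptger4 had at most 31 counts in a mouse, so only large differences were detectable for them.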
